A study of Homo sapiens with 10 samples.

Results

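The cadherin and protocadherin genes were followed in U2OS cells depleted of DDX41 and in control cells. The genes were chosen by name: every protein-coding gene on an autosome whose symbol is CDH followed by a number or begins with PCDH, together with FAT1, FAT2, FAT3, FAT4, DCHS1, DSC2, DSC3, DSG2 and the catenin genes CTNNA1, CTNNB1 and CTNND1. This gave 97 genes of the 63254 in the count tables, and 3 protocadherin genes on the sex chromosomes were left out. U2OS is a human osteosarcoma line with mesenchymal features, and DDX41 is a DEAD-box helicase that acts on RNA–DNA hybrids. All libraries came from this line and all cells received a pool of siRNAs for 48 h, either siRNAs against DDX41 or control siRNAs, with 5 libraries per group. Polyadenylated RNA was sequenced as stranded single-read libraries, and 21807041 to 24896398 reads were counted to genes per library. The question put to the data is which of these adhesion genes changed in RNA level when DDX41 was depleted.

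Cadherins are transmembrane proteins whose extracellular repeats bind the same or similar cadherins on the neighbouring cell in a calcium-dependent way. Classical cadherins hold p120-catenin (CTNND1) and β-catenin (CTNNB1) on their cytoplasmic tail, and α-catenin (CTNNA1) links that complex to actin, while desmosomal cadherins are linked to intermediate filaments. Fat and Dachsous proteins are giant cadherins that pair across cells in planar polarity and growth control. The clustered protocadherins lie in 3 neighbouring arrays on chromosome 5, known from neurons, where each first exon has a promoter of its own and cells choose among them. In the α (PCDHA) and γ (PCDHG) arrays the first exon is spliced to constant exons shared by the whole array, whereas each β (PCDHB) gene stands as a single exon.

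Of the 97 genes, 72 passed edgeR's expression filter and were tested among 16143 genes. The other 25 were not tested; CDH9, CDH16 and PCDH20 had no count in any library, and no untested gene was above 0.809 CPM in any library (reads of a gene relative to the library size, after scaling by TMM factors). With edgeR's quasi-likelihood test and Benjamini-Hochberg (BH) adjustment over all tested genes, at an adjusted p under 0.01, 11 of the 72 genes were upregulated (15.3%, against 30.3% of all tested genes). A larger number, 36, were downregulated (50.0%, against 32.1% of all tested genes), and 25 were not called. The 72 genes had a median log2 fold change of -0.36, with values from -1.86 to 1.79, and the median over all tested genes was -0.0014. All 5 knockdown libraries lay above all 5 control libraries for 10 of the 72 genes, against 26.7% of all tested genes, and below them for 34, against 29.3%. In the remaining 28 the groups overlapped. Changes beyond 2-fold were upward in 3 genes (2.54% of all tested genes were) and downward in 10 (6.08% of all tested genes were).

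**Figure D1:**
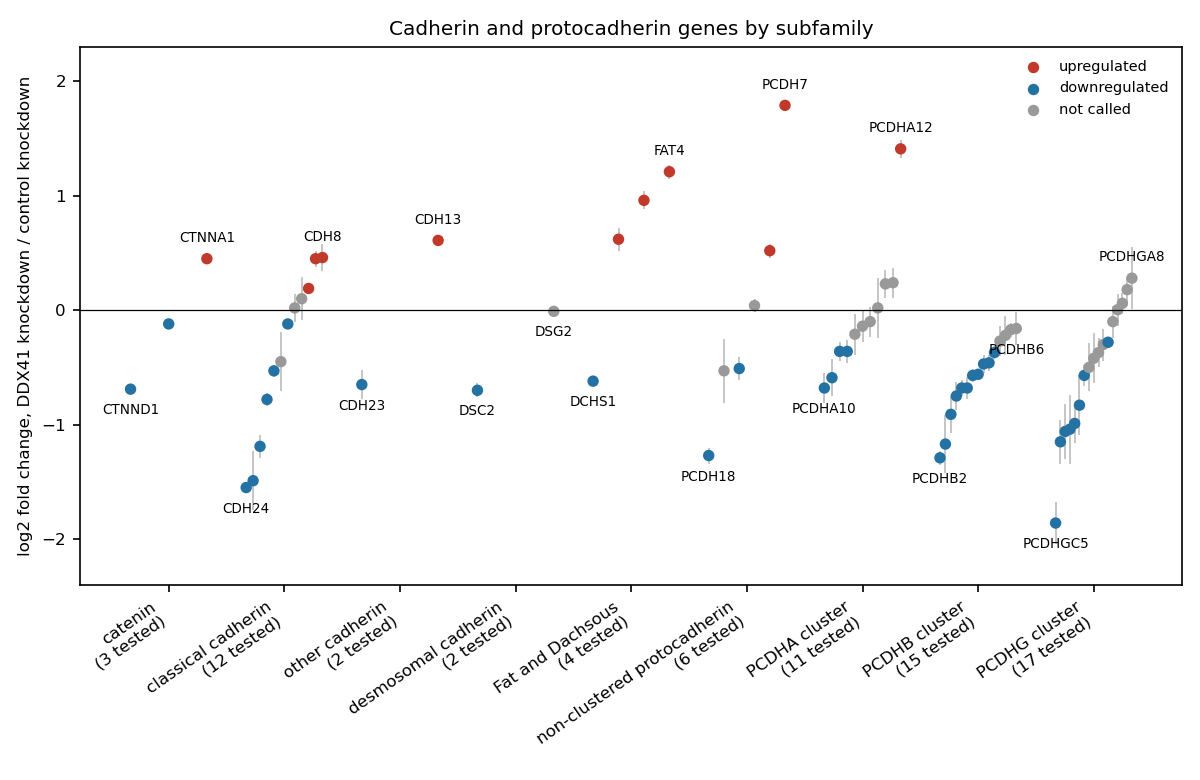
Log2 fold change (DDX41 knockdown over control knockdown, y axis) of the 72 tested genes, grouped by subfamily (x axis); each point is 1 gene, bars are standard errors, and colour gives the call at an adjusted p under 0.01. All 15 tested PCDHB genes lie below 0, between -1.29 and -0.16, while FAT1, FAT3, FAT4, PCDH7 and PCDHA12 lie well above it.

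The counts of the subfamilies are to be read against 30.3% upregulated and 32.1% downregulated among all tested genes. Of 4 tested Fat and Dachsous genes 3 were upregulated and 1 was downregulated, of 12 classical cadherins 3 and 6, of 2 desmosomal cadherins 0 and 1, and of 6 protocadherins outside the arrays 2 and 2 (33.3% each, near the shares of all tested genes). Among the 43 tested genes of the arrays, 1 was upregulated and 23 were downregulated (median log2 fold change -0.37). Among the 29 tested genes outside them, 10 were upregulated and 13 downregulated (median -0.12). In bulk RNA, fewer cells that express a gene and less of its RNA per cell cannot be told apart.

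DDX41 itself stood at 49.1, 49.4, 47.3, 47.2 and 50.5 CPM in control and 11.5, 13.7, 12.4, 11.2 and 12.3 CPM in knockdown libraries. Of the mesenchymal and osteoblast markers, VIM, SPARC, COL1A1 and FN1 were at 2465, 2807, 1875 and 1672 CPM in control libraries, while RUNX2 was at 32.4 and COL1A2 at 0.448 CPM. Of these RUNX2 (log2 fold change -0.40) and VIM (-0.09) were downregulated and SPARC (0.18) was upregulated. The 6 markers of that list summed to 8694 to 9020 CPM in control and 8605 to 8908 CPM in knockdown libraries. Haematopoietic markers summed to less than 1 CPM in every library, with CD3E at 0. No pair of replicates (20 pairs) was as alike as repeated counts of 1 library would be, with a chi-square per degree of freedom of 1.84 or more, and the biological coefficient of variation was 3.65%.

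Among the 3 catenins, 1 was upregulated and 2 were downregulated, beside 30.3% and 32.1% of all tested genes. In each of the 3 genes the groups did not overlap. Of all tested genes, 26.7% lay wholly higher and 29.3% wholly lower in the knockdown libraries. CTNND1 (ENSG00000198561.13, chr11:57753243-57819546, plus strand), p120-catenin, which keeps cadherins at the cell surface, was at 323, 309.5, 328, 327 and 324 CPM in the control libraries and at 192, 210.5, 193, 199 and 202 CPM in the knockdown libraries. It was thus lower by 1.62-fold (log2 fold change -0.69, SE 0.03, adjusted p = 7.09e-19, edgeR quasi-likelihood test, BH). CTNNA1 (ENSG00000044115.20, chr5:138610967-138935034, plus strand), α-catenin, was at 446, 429.7, 436, 439.8 and 429.9 CPM in control and 592, 582, 588, 609 and 602 CPM in knockdown libraries. It moved the other way, 1.36-fold up (log2 fold change 0.45, SE 0.02, adjusted p = 6.52e-16, edgeR, BH). CTNNB1 (ENSG00000168036.16, chr3:41194741-41260096, plus strand), which besides its junction role is the transcriptional effector of canonical Wnt signalling, was at 466, 449.8, 455, 443 and 458 CPM in control and 415, 422, 415, 423 and 411 CPM in knockdown libraries. This change of 1.09-fold was small but larger than the spread of the replicates (log2 fold change -0.12, SE 0.02, adjusted p = 5.15e-05, edgeR, BH). Levels were also taken per kb of exon not shared with another gene on the same strand. On that scale the catenins were highest in control libraries. CTNNA1, CTNNB1 and CTNND1 had 49.4, 38.7 and 34.8 CPM per kb, ahead of CDH2 at 26.2. For CTNND1 this leaves out 5952 of 15212 exon bases. Reads there may have been counted, so its place ahead of CDH2 is uncertain.

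The main classical cadherin of these cells was CDH2 (ENSG00000170558.8, chr18:27932879-28177946, minus strand), N-cadherin, the cadherin of mesenchymal and neural cells. It was at 227, 213, 228, 232 and 226 CPM in control and 196, 217, 199, 215 and 210.1 CPM in knockdown libraries. The groups overlapped, and the difference was 1.09-fold (log2 fold change -0.12, SE 0.03, adjusted p = 0.00129, edgeR quasi-likelihood test, BH). CDH1, E-cadherin of epithelia, stood at 0.874 ± 0.0687 CPM in control and 0.928 ± 0.220 CPM in knockdown libraries (SD, n = 5) and was not called (adjusted p = 0.666, edgeR, BH). A gene annotated across CDH1 on the opposite strand had 63 counts beside 214 for CDH1. This level is uncertain if strand was not used in counting, which is not given.

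CDH24 (ENSG00000139880.19, chr14:23047062-23057538, minus strand), a type II cadherin that binds catenins, changed most among the classical cadherins. It was at 66.9, 70.4, 64.6, 64.1 and 72.9 CPM in control libraries and at 21.5, 23.6, 23.9, 23.0 and 23.4 CPM in knockdown libraries, with every knockdown library below 24 CPM and every control library above 64. The level was 2.93-fold lower (log2 fold change -1.55, SE 0.04, adjusted p = 6.83e-23, edgeR, BH). CDH12 (ENSG00000154162.14, chr5:21750673-22853344, minus strand), a type II cadherin known from brain, was at 19.8, 19.6, 22.1, 19.5 and 20.3 CPM in control and 11.0, 12.1, 11.9, 10.6 and 13.1 CPM in knockdown libraries. It fell without overlap (log2 fold change -0.78, SE 0.06, adjusted p = 9.95e-13, edgeR, BH). CDH18 (chr5:19471296-20575873, minus strand), another type II cadherin of the nervous system, had 21.5, 23.0, 22.0, 21.9 and 22.0 CPM in control and 15.1, 14.8, 16.0, 16.2 and 14.3 CPM in knockdown libraries. This too was a fall without overlap (log2 fold change -0.53, SE 0.05, adjusted p = 1.32e-10, edgeR, BH).

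CDH6 (chr5:31193686-31329146, plus strand), K-cadherin, a type II cadherin of the developing kidney, was at 7.64, 7.02, 7.27, 8.13 and 8.04 CPM in control libraries. In the knockdown libraries it was at 2.85, 4.60, 3.22, 2.94 and 3.11 CPM, with replicate 2 above the others. It was 2.27-fold lower (log2 fold change -1.19, SE 0.10, adjusted p = 1.71e-11, edgeR, BH). CDH12, CDH18 and CDH6 lie on the short arm of chromosome 5, as does CDH10 (chr5:24487100-24644978, minus strand), which was not called (log2 fold change 0.02, SE 0.12, adjusted p = 0.902, edgeR, BH).

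Upregulated classical cadherins had log2 fold changes of 0.19 to 0.46. CDH11 (ENSG00000140937.13, chr16:64943753-65126112, minus strand), the cadherin of osteoblasts and mesenchyme, was at 49.4, 50.9, 50.7, 48.5 and 51.2 CPM in control and 53.6, 64.1, 53.8, 54.0 and 60.5 CPM in knockdown libraries. The lowest knockdown library still lay above the highest control library (log2 fold change 0.19, SE 0.04, adjusted p = 0.000402, edgeR, BH). CDH4 (chr20:61252261-61940617, plus strand), R-cadherin, had 12.1, 12.8, 11.2, 10.9 and 12.1 CPM in control and 14.9, 14.3, 18.7, 17.1 and 15.9 CPM in knockdown libraries, again without overlap (log2 fold change 0.45, SE 0.07, adjusted p = 9.22e-07, edgeR, BH). CDH8, at 2.87 ± 0.447 CPM in control and 3.94 ± 0.536 CPM in knockdown libraries (SD, n = 5), was upregulated with overlapping groups (log2 fold change 0.46, adjusted p = 0.00108, edgeR, BH).

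CDH5, VE-cadherin of endothelial junctions, was low, at 0.898, 1.22, 1.22, 1.16 and 0.625 CPM in control and 0.184, 0.347, 0.564, 0.383 and 0.298 CPM in knockdown libraries, and fell (log2 fold change -1.49, SE 0.26, adjusted p = 8.54e-06, edgeR, BH). The 5 endothelial markers examined beside it summed to 6.65 to 7.33 CPM in control and 3.13 to 4.26 CPM in knockdown libraries. Both tested ones, VWF (log2 fold change -0.99) and TEK (-0.73), were downregulated, and PECAM1 and KDR stood at 0.303 and 0.374 CPM in control libraries. Their part in the result was not tested. CDH15 was not called, and 6 of the 18 classical cadherins were below the filter.

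**Figure D2:**
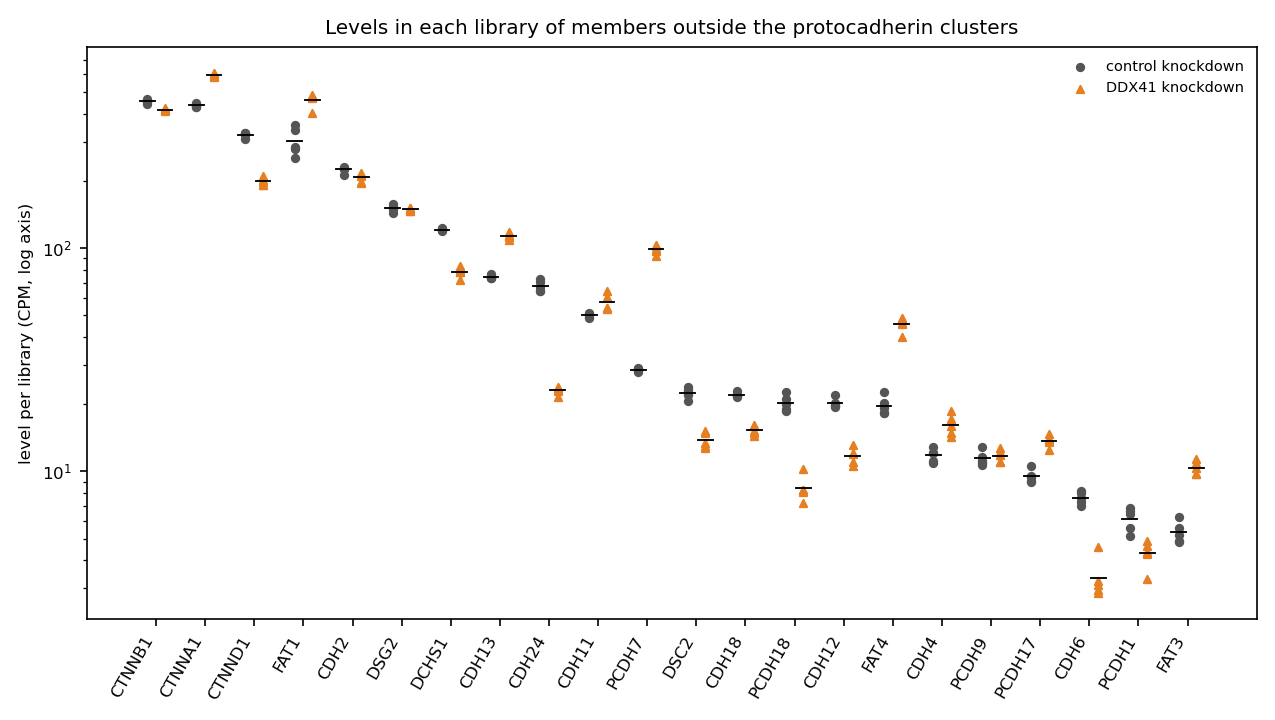
Level in each library (CPM, log axis) of the 22 named genes outside the arrays, ordered by their control mean; grey circles are the 5 control knockdown libraries, orange triangles the 5 DDX41 knockdown libraries and black lines the group means. CTNND1, DCHS1, CDH24 and PCDH18 lie lower and CTNNA1, FAT1, CDH13, PCDH7 and FAT4 higher in the knockdown libraries, while DSG2, PCDH9 and CDH2 overlap.

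Of the desmosomal cadherins, DSG2 (chr18:31498177-31549008, plus strand), desmoglein 2, was the abundant one, at 158, 143, 153, 149 and 151 CPM in control and 149, 147, 152, 152 and 147 CPM in knockdown libraries. The groups overlapped and it was not called (log2 fold change -0.01, SE 0.03, adjusted p = 0.679, edgeR, BH). DSC2 (chr18:31058840-31102522, minus strand), desmocollin 2, its usual partner in simple desmosomes, was at 22.7, 20.8, 24.0, 23.3 and 21.9 CPM in control and 13.0, 14.9, 13.4, 15.2 and 12.8 CPM in knockdown libraries. It was 1.63-fold lower (log2 fold change -0.70, SE 0.06, adjusted p = 4.93e-12, edgeR, BH), and DSC3 was below the filter. The 8 epithelial markers summed to 57.5 to 64.0 CPM in control and 23.1 to 27.5 CPM in knockdown libraries. In that list KRT14, KRT5 and CLDN4 fell from 17.2, 5.24 and 29.2 CPM to 1.78, 0.488 and 13.3 CPM, EPCAM was at 7.99 and 8.31 CPM, and GRHL2 was at or near 0 in all libraries. The part of these markers in the change of DSC2 was not tested.

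FAT1, FAT3 and FAT4 rose, and DCHS1, the gene of the FAT4 ligand, fell. FAT4 (ENSG00000196159.11, chr4:125314918-125492932, plus strand), the receptor that pairs with Dachsous, was at 18.2, 19.2, 22.6, 20.2 and 18.3 CPM in control and 46.3, 48.0, 48.6, 40.0 and 45.6 CPM in knockdown libraries. It was 2.32-fold higher, with no overlap between the groups (log2 fold change 1.21, SE 0.06, adjusted p = 6.37e-15, edgeR quasi-likelihood test, BH). DCHS1 (ENSG00000166341.7, chr11:6621330-6655809, minus strand), Dachsous 1, was at 120.2, 119.8, 123, 122 and 120.2 CPM in control and 78.5, 83.6, 78.5, 72.1 and 80.1 CPM in knockdown libraries. It was 1.54-fold lower, also without overlap (log2 fold change -0.62, SE 0.03, adjusted p = 2.56e-16, edgeR, BH).

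FAT1 (ENSG00000083857.13, chr4:186587794-186726722, minus strand), a giant cadherin with roles in actin organisation and growth control, was at 255, 285, 355, 339 and 279 CPM in control libraries. In the knockdown libraries it was at 472, 486, 481, 402 and 476 CPM. Replicates 3 and 4 of the control and replicate 4 of the knockdown approached each other without overlap, and the standard error was wide for a gene of this level (log2 fold change 0.62, SE 0.10, adjusted p = 0.000471, edgeR, BH). FAT3 (chr11:92224818-92896473, plus strand), best known from retina and brain, was at 5.19, 5.59, 6.27, 4.83 and 4.87 CPM in control and 9.71, 11.3, 10.3, 10.9 and 9.71 CPM in knockdown libraries, a 1.94-fold rise (log2 fold change 0.96, SE 0.08, adjusted p = 7.59e-12, edgeR, BH). FAT2 was below the filter with 1 to 4 counts per library.

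Among the remaining cadherins, CDH13 (ENSG00000140945.16, chr16:82626965-83800640, plus strand), T-cadherin, which has a lipid anchor in place of a cytoplasmic tail, was at 73.6, 73.4, 73.6, 76.8 and 74.9 CPM in control and 115, 114, 109, 118 and 112 CPM in knockdown libraries. It rose 1.52-fold (log2 fold change 0.61, SE 0.03, adjusted p = 6.54e-17, edgeR, BH). CDH23, a cadherin of the hair-cell tip link, was at 4.33 ± 0.541 CPM in control and 2.77 ± 0.624 CPM in knockdown libraries (SD, n = 5) and fell without overlap (log2 fold change -0.65, adjusted p = 5.66e-05, edgeR, BH). CDH16, CDH17 and CDH26 were below the filter.

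The protocadherin outside the arrays with the widest change was PCDH7 (ENSG00000169851.15, chr4:30720369-31146805, plus strand), which also had the highest log2 fold change of the 72 genes. It was at 28.1, 28.8, 28.0, 28.7 and 29.2 CPM in control and 102, 104, 97.3, 92.3 and 99.2 CPM in knockdown libraries. Control libraries agreed to within about 1 CPM, and the lowest knockdown library was more than 3 times the highest control library. The rise was 3.46-fold (log2 fold change 1.79, SE 0.04, adjusted p = 6.72e-26, edgeR, BH), and on the scale of level per kb it went from 2.21 to 7.66 CPM per kb.

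PCDH18 (ENSG00000189184.11, chr4:137518918-137532494, minus strand), of the same δ-protocadherin class as PCDH17, went the other way, at 20.1, 18.6, 22.8, 19.0 and 21.1 CPM in control and 8.10, 10.2, 8.26, 7.24 and 8.22 CPM in knockdown libraries. It was 2.41-fold lower (log2 fold change -1.27, SE 0.07, adjusted p = 1.45e-14, edgeR, BH). PCDH17 (chr13:57631744-57729311, plus strand) was at 8.98, 9.47, 10.6, 9.03 and 9.54 CPM in control and 14.7, 13.9, 12.4, 13.5 and 13.9 CPM in knockdown libraries and rose without overlap (log2 fold change 0.52, SE 0.06, adjusted p = 2.15e-08, edgeR, BH). PCDH1 (chr5:141853090-141879246, minus strand), an epithelial and airway protocadherin, had 6.86, 5.14, 5.55, 6.67 and 6.42 CPM in control and 3.31, 4.26, 4.35, 4.64 and 4.90 CPM in knockdown libraries. It fell, and its groups lay close to each other (log2 fold change -0.51, SE 0.10, adjusted p = 5.59e-05, edgeR, BH). PCDH9 was at 12.8, 10.7, 11.2, 11.6 and 10.9 CPM in control and 12.2, 11.0, 11.0, 11.8 and 12.8 CPM in knockdown libraries. Its groups overlapped. Neither PCDH9 nor PCDH8 was called, and 4 of these 10 genes were below the filter.

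The β array (GRCh38 chr5:141051374-141249365) lies between the α and γ arrays. Of its 16 genes 15 were tested, all 15 had a negative log2 fold change, 11 were downregulated (73.3%, against 32.1% of all tested genes), none was upregulated and the median was -0.56. PCDHB5 (ENSG00000113209.8, chr5:141135206-141138615, plus strand) carried 38.5% of the array's reads in control and 38.8% in knockdown libraries. It was at 81.8, 81.3, 82.5, 86.0 and 87.7 CPM in control and 58.4, 58.3, 53.2, 56.2 and 58.8 CPM in knockdown libraries, 1.47-fold lower (log2 fold change -0.56, SE 0.03, adjusted p = 1.35e-14, edgeR quasi-likelihood test, BH). PCDHB2 (ENSG00000112852.6, chr5:141094606-141098703, plus strand) showed the deepest fall of the array, from 24.5, 24.3, 26.8, 24.3 and 26.0 CPM in control libraries to 10.5, 12.2, 9.51, 9.92 and 9.41 CPM in knockdown libraries. This was a 2.45-fold difference (log2 fold change -1.29, SE 0.06, adjusted p = 1.83e-17, edgeR, BH).

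Next in level, PCDHB11 (chr5:141199610-141203779, plus strand) was at 24.4, 22.6, 28.2, 23.7 and 24.9 CPM in control and 20.9, 19.7, 18.5, 16.7 and 19.7 CPM in knockdown libraries (log2 fold change -0.37, SE 0.06, adjusted p = 3.37e-06, edgeR, BH). PCDHB12 (chr5:141208697-141212571, plus strand) was at 15.7, 15.1, 17.2, 15.9 and 17.4 CPM in control and 10.6, 12.3, 11.0, 10.9 and 10.0 CPM in knockdown libraries (log2 fold change -0.57, SE 0.06, adjusted p = 2.56e-09, edgeR, BH). Neither gene's groups overlapped. PCDHB8 (chr5:141177790-141180539, plus strand), with a level like that of PCDHB12, was at 15.6, 17.1, 15.7, 14.8 and 16.3 CPM in control and 15.8, 13.9, 14.3, 13.2 and 13.8 CPM in knockdown libraries. Its groups overlapped and it missed the threshold (log2 fold change -0.17, SE 0.06, adjusted p = 0.0123, edgeR, BH), although it passed when control replicate 4 (adjusted p = 0.00693) or knockdown replicate 1 (adjusted p = 0.00366) was left out.

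The other downregulated β genes had log2 fold changes of -1.17 for PCDHB4, -0.91 for PCDHB7, -0.75 for PCDHB9, -0.68 for PCDHB10, -0.68 for PCDHB14, -0.47 for PCDHB13 and -0.46 for PCDHB16. PCDHB3, PCDHB6 and PCDHB15, each below 3 CPM, were not called, and PCDHB1 was below the filter. Summed over the 16 genes, the array gave 218 ± 6.08 CPM in control (SD, n = 5; 211 to 225) and 147 ± 5.93 CPM in knockdown libraries (141 to 153), a log2 ratio of -0.57.

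**Figure D3:**
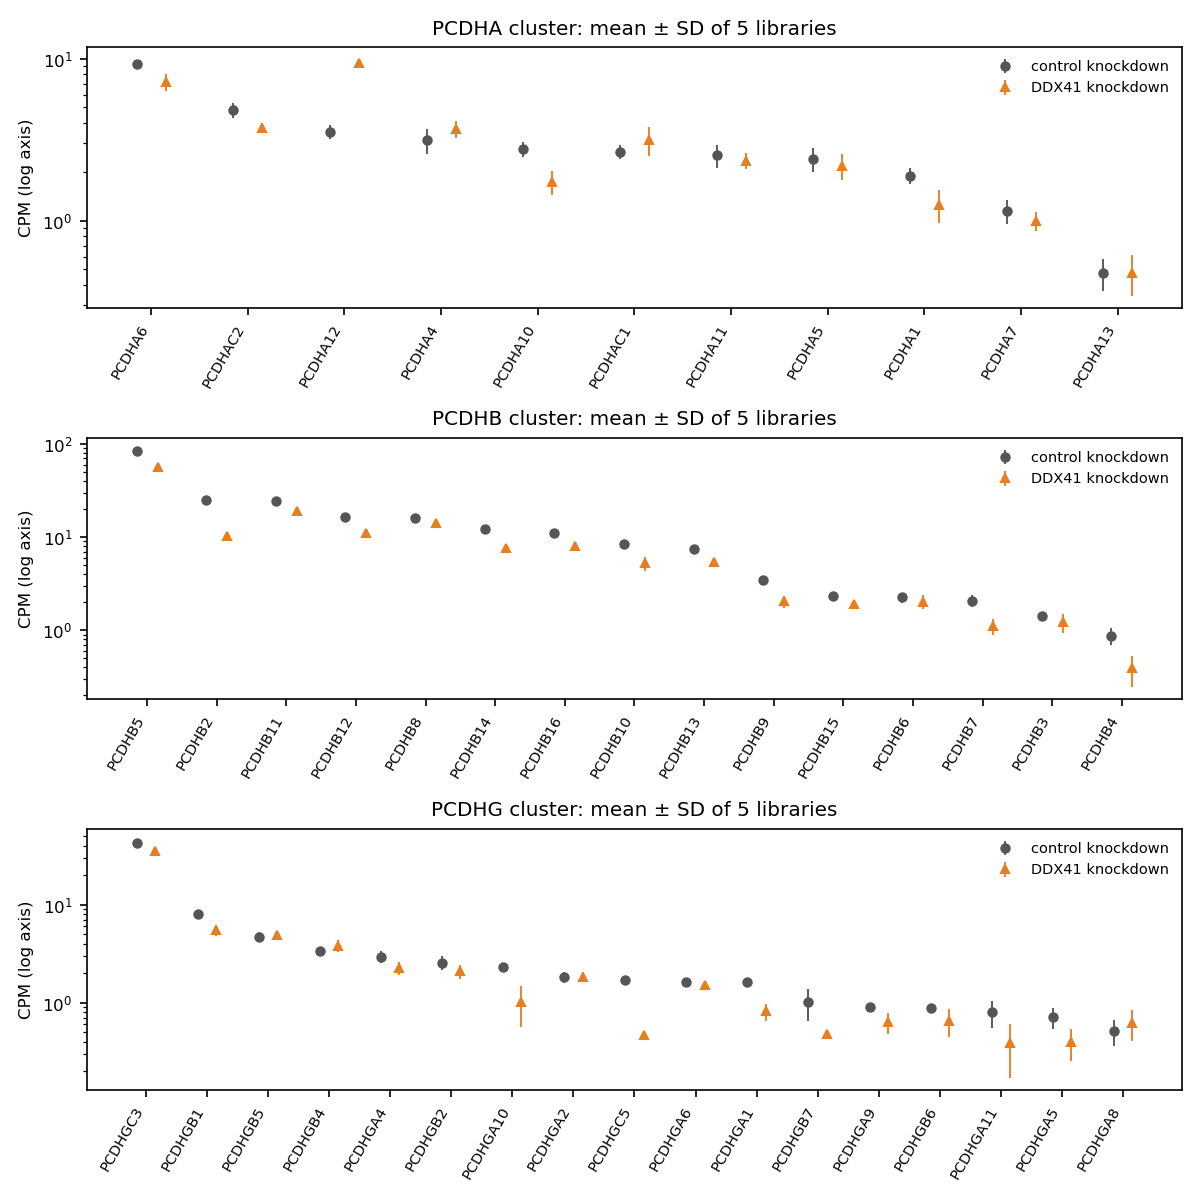
Level of each tested gene of the 3 protocadherin arrays (CPM, log axis), as mean and SD (bars) of 5 libraries per group; grey circles are control knockdown, orange triangles DDX41 knockdown, and genes are ordered by control mean within each panel. Most β and γ genes lie lower in the knockdown libraries, whereas PCDHA12 goes from 3.52 to 9.38 CPM.

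The γ array (chr5:141330514-141512977) had 17 of 22 genes tested, of which 8 were downregulated (47.1%, against 32.1% of all tested genes), none was upregulated (against 30.3%) and 9 were not called (median log2 fold change -0.42). PCDHGC3 (ENSG00000240184.6, chr5:141475947-141512977, plus strand), a C-type isoform that is not chosen at random, made up 53.6% of the array's reads in control and 55.3% in knockdown libraries. It was at 43.0, 39.9, 44.9, 40.6 and 44.1 CPM in control and 34.3, 35.7, 35.6, 34.1 and 35.4 CPM in knockdown libraries, lower without overlap but by only 1.21-fold (log2 fold change -0.28, SE 0.04, adjusted p = 4.66e-07, edgeR, BH). Its C-type neighbour PCDHGC5 (chr5:141489081-141512975, plus strand) had the most negative log2 fold change of the 72 genes. It was at 1.92, 1.67, 1.64, 1.58 and 1.67 CPM in control and 0.460, 0.391, 0.484, 0.469 and 0.511 CPM in knockdown libraries, which rests on 37 to 47 counts per control and 9 to 12 counts per knockdown library (log2 fold change -1.86, SE 0.18, adjusted p = 2.22e-10, edgeR, BH).

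PCDHGA10, PCDHGB7, PCDHGA11, PCDHGA1, PCDHGA5 and PCDHGB1 were also downregulated, with log2 fold changes of -1.15, -1.06, -1.04, -0.99, -0.83 and -0.57. Of these PCDHGB1 was the highest, at 8.08 ± 0.668 CPM in control and 5.46 ± 0.705 CPM in knockdown libraries (SD, n = 5), and the others were below 3 CPM. The calls of PCDHGA11 and PCDHGA5 were the weakest. PCDHGA11 was lost without control replicate 1 (adjusted p = 0.0112) or without knockdown replicate 1 (0.0107) or 4 (0.0116). PCDHGA5 was lost with DESeq2 (adjusted p = 0.0315), without control replicate 3 (0.031), or without knockdown replicate 1, 3 or 5 (0.0174, 0.0156 and 0.0267). PCDHGA4, not called here (log2 fold change -0.37, adjusted p = 0.0112, edgeR, BH), passed in the same test without control replicate 5 (0.00536) or knockdown replicate 1 (0.00367). The γ genes together summed to 79.4 ± 2.85 CPM in control (SD, n = 5; 76.7 to 83.98) and 63.3 ± 1.44 CPM in knockdown libraries (61.4 to 65.3).

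The α array (chr5:140786136-141012347) had 11 of 15 genes tested. Of these 1 was upregulated (9.09%, against 30.3% of all tested genes), 4 were downregulated (36.4%, near the 32.1% of all tested genes) and 6 were not called. PCDHA12 (ENSG00000251664.3, chr5:140875302-141012347, plus strand) was the only gene of the 3 arrays that was upregulated. It was at 3.35, 4.00, 3.74, 3.38 and 3.12 CPM in control and 8.46, 9.60, 10.1, 9.54 and 9.20 CPM in knockdown libraries, from 75 to 98 counts per control library and 184 to 250 per knockdown library. The level was 2.66-fold higher (log2 fold change 1.41, SE 0.08, adjusted p = 3.95e-15, edgeR, BH).

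PCDHA6 (chr5:140827958-141012347, plus strand), the highest α gene in control libraries, was at 8.82, 9.63, 9.71, 8.99 and 8.91 CPM there and 7.13, 8.34, 6.05, 6.73 and 7.71 CPM in knockdown libraries. It was downregulated (log2 fold change -0.36, SE 0.08, adjusted p = 0.000164, edgeR, BH), and its share of the array's reads went from 26.2% to 19.6%. PCDHA10, PCDHA1 and PCDHAC2 were downregulated as well, with log2 fold changes of -0.68, -0.59 and -0.36. The sum over the α array was 35.2 ± 0.974 CPM in control and 36.6 ± 1.57 CPM in knockdown libraries (SD, n = 5), and these sums overlapped. PCDHA12 lies between PCDHA11 (log2 fold change -0.10) and PCDHA13 (0.02), neither of which was called. The 5 neuronal markers examined beside the arrays summed to 54.4 to 59.7 CPM in control and 59.2 to 67.0 CPM in knockdown libraries, with SNAP25 (0.39) upregulated and the other 4 not called. Their part in these results was not tested.

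Counts in the arrays are ambiguous by construction. Each α gene shares at least 2869 exon bases on the same strand with other genes of its array, and each γ gene at least 2177. Over the 10 libraries PCDHA2 had 23 counts in all beside 1943 for PCDHA6, and PCDHGA12 had 12 beside 9186 for PCDHGC3, so reads in the constant exons were not counted to every gene of the array. Windows of 84 bases, the read length, were taken along the annotated transcripts. A median of 48.3% per α gene, 42.95% per γ gene and 15.65% per β gene occurred also in another gene, on either strand. Matches on the opposite strand make reads ambiguous only if strand was not used in counting, which is not given.

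The windows differ among the β genes. They were shared for 49.7% of PCDHB2, the gene with the deepest fall, and for 35.2% of PCDHB8, which was not called. PCDHB2 had 43.9% of its exon bases shared with annotated genes on either strand, but 0 bases on the same strand. Windows were shared for 5.66% of PCDHB7, 6.42% of PCDHB4 and 7.08% of PCDHB12, which were downregulated, and for 8.14% of PCDHB6, which was not called. PCDHA1, a downregulated α gene, had 97.2% of its windows shared on either strand. On the same strand, 2869 of its 5595 exon bases were shared. An annotated gene that overlaps it had 73 counts over all libraries beside 373 for PCDHA1. The call of PCDHA1 is therefore uncertain, above all if strand was not used in counting. PCDHA12, with 60.8% of its windows shared, was near PCDHA13 at 60.9%. Outside the arrays, windows were shared for 35.2% of CTNND1, 19.5% of CDH13 and 11.4% of PCDH7. On the same strand CTNND1 shared 5952 exon bases with another gene, whereas CDH13 and PCDH7 each shared 0. The annotated gene that overlaps CTNND1 had 16 counts over all libraries beside 61918 for CTNND1.

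**Figure D4:**
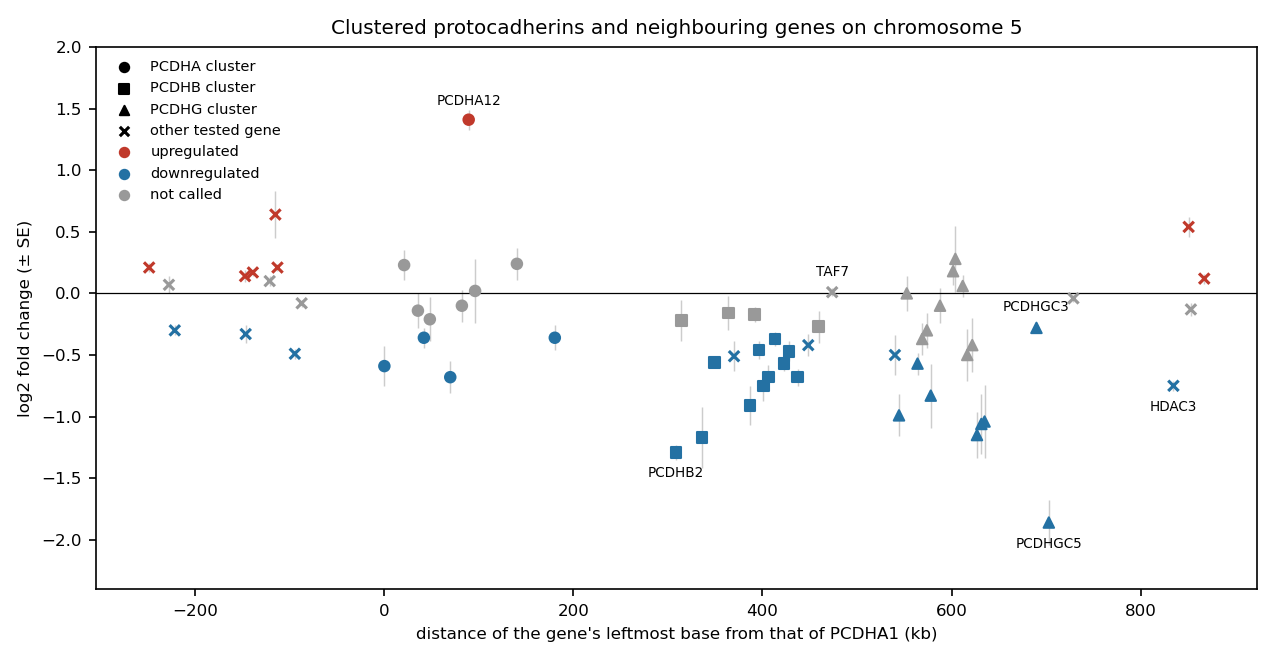
Log2 fold change with its standard error (y axis) against the distance in kb of each gene's leftmost base from that of PCDHA1 (x axis), for tested genes of the 3 arrays and other tested genes within 300 kb; marker shape gives the array and colour the call. The β and γ genes lie at or below 0 apart from a few not called, PCDHA12 stands at 1.41 while the other α genes lie between -0.68 and 0.24, and TAF7 between the arrays lies at 0.01.

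The neighbours of the arrays were examined within 300 kb. Of 17 tested protein-coding genes there that are not protocadherins, 7 were upregulated (against 30.3% of all tested genes), 4 were downregulated (against 32.1%) and 6 were not called, with a median log2 fold change of 0.07. TAF7, a general transcription factor subunit whose gene lies between the β and γ arrays, was at 172 and 173 CPM (log2 fold change 0.01, adjusted p = 0.871, edgeR, BH). HDAC3, beyond the γ array, was downregulated (-0.75). The β pseudogenes PCDHB17P and PCDHB18P, which lie among the β genes, were downregulated with log2 fold changes of -0.51 and -0.42 (adjusted p = 0.000309 and 0.000155, edgeR, BH).

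Promoters of the arrays are shown because their genes have separate starts yet moved in different directions. RefSeq promoter windows on GRCh38.p14 were found for 47 of the 53 genes of the arrays, with 52 windows in all. The clustered protocadherin promoters are known for a conserved element with the core CGCT. The 100 bases before the RefSeq start held CGCT on the strand of the gene in 12 of 13 α windows, 13 of 14 β windows and 19 of 25 γ windows, against 28.1% of 35116 RefSeq promoters. On either strand it was in 12 of 13 α, 13 of 14 β and 21 of 25 γ windows, against 44.8% of all promoters. Any CGCT was counted whatever its flanks, so a match need not be that element. The following lines give those 100 bases, 5′ to 3′ on the plus strand, with each CGCT and the 4 bases before it in capitals, first for PCDHB2 (chr5:141094515-141094614), PCDHB5 (chr5:141135106-141135205), PCDHB7 (chr5:141172544-141172643), PCDHB9 (chr5:141187061-141187160), PCDHB12 (chr5:141208619-141208718) and PCDHB14 (chr5:141223243-141223342), which fell, and then for PCDHB8 (chr5:141177690-141177789), which was not called:
PCDHB2: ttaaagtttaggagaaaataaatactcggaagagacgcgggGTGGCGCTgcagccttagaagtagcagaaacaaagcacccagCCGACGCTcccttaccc
PCDHB5: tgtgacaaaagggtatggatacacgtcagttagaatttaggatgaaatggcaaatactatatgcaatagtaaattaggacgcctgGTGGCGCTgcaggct
PCDHB7: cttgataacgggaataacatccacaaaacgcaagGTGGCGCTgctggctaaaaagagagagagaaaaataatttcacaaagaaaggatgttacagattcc
PCDHB9: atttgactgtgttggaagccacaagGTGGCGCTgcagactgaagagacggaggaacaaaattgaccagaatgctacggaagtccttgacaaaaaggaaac
PCDHB12: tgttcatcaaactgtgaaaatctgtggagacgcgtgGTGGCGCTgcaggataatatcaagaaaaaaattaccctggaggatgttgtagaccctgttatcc
PCDHB14: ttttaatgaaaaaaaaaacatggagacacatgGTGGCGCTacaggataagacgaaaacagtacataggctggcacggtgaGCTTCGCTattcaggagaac
PCDHB8: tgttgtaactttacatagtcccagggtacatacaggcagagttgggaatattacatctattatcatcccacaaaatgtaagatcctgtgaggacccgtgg

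The β promoters shared the 8 bases GTGGCGCT, one of 2 equally frequent 8-base words, chosen after the sequences were seen and ending in the core CGCT. It was in 12 of 14 β windows of 250 bases on either strand (85.7%), in no α or γ window and in 0.94% of all promoters. Among the 12 tested β genes with it, 10 were downregulated, beside 11 of all 15 tested β genes and 32.1% of all tested genes, and the log2 fold changes ran from -1.29 to -0.22 with a median of -0.62. PCDHB8 was the only tested β gene with a window that lacked it, and PCDHB11, downregulated, and PCDHB6, not called, had no window. The window of PCDHB8 held no CGCT in its last 100 bases and no GTGGCGCT. PCDHB3 and PCDHB15 had the word and were not called. These are matches of letters, not measured binding sites.

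In the other arrays the core had different flanks, as seen in the promoters of PCDHA6 (chr5:140827860-140827959), which fell, PCDHA12 (chr5:140875208-140875307), which rose, and PCDHGA10 (chr5:141412887-141412986), which fell:
PCDHA6: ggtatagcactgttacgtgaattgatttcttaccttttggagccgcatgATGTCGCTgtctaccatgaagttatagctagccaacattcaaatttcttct
PCDHA12: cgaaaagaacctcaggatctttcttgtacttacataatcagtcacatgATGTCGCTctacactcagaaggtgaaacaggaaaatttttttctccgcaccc
PCDHGA10: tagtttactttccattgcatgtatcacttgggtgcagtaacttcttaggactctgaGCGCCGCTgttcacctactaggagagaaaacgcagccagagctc
PCDHA6 and PCDHA12 carried the same capitals, ATGTCGCT, with the core beginning 47 and 48 bases before the start, and had log2 fold changes of -0.36 and 1.41. The CGCT nearest the start began a median of 44 bases before the start in α, 60 in β and 48 in γ windows. These distances take any CGCT: in PCDHB2 the nearest began 13 bases before the start, and GTGGCGCT began at 59.

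The β genes were the 15 tested genes of the family made of 1 exon block, with a median log2 fold change of -0.56. The 287 other single-block protein-coding genes tested had a median of 0.07, with 34.5% upregulated and 31.0% downregulated. The 16 tested members outside the arrays that span over 100 kb had a median of 0.32, with 56.2% upregulated and 31.2% downregulated. The 2888 other tested protein-coding genes of that span had a median of -0.02, with 33.9% upregulated and 37.2% downregulated. These shares are descriptions without a test.

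The partners of the cadherins were examined as lists, whose counts stand beside 30.3% upregulated and 32.1% downregulated among all tested genes. Of 23 junction plaque and adaptor genes 21 were tested, 11 were upregulated and 6 downregulated (median log2 fold change 0.16). JUP, plakoglobin, the catenin that also serves desmosomes, fell from 51.6 to 17.2 CPM (log2 fold change -1.59). VCL, vinculin, which binds α-catenin under tension, fell from 395 to 197 CPM. NECTIN1, an immunoglobulin-type adhesion receptor of adherens junctions, fell from 67.2 to 30.6 CPM (-1.13).

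Of 14 genes of cadherin processing and endocytosis, all tested, 9 were upregulated (against 30.3% of all tested genes) and 2 downregulated (against 32.1%), with a median of 0.19. The count of 2 was 1 with DESeq2, with its size factors, without the filter, with the replicate block, and without control replicate 2 or 5 or knockdown replicate 1, 2, 4 or 5. ADAM10, the sheddase that cleaves N-cadherin and γ-protocadherins, rose from 283 to 423 CPM, ADAM17 from 97.4 to 164 CPM and FURIN, which removes cadherin propeptides, from 207 to 307 CPM. Of 6 tested repressors of E-cadherin transcription, none was upregulated (against 30.3%) and 2 were downregulated (near the 32.1% of all tested genes): SNAI2 from 14.6 to 7.57 CPM and SNAI1 from 11.9 to 7.89 CPM. With DESeq2 size factors, without control replicate 3 or at an adjusted p under 0.05, 1 repressor was upregulated. ZEB1 was at 64.8 and 69.2 CPM and was not called (adjusted p = 0.0129, edgeR, BH).

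Of 14 regulators of the protocadherin arrays, all tested, 3 were upregulated (against 30.3% of all tested genes) and 7 downregulated (against 32.1%), with a median of -0.04. CTCF, which binds the arrays' promoters and enhancers, fell from 146 to 104 CPM (log2 fold change -0.49), the cohesin subunit gene RAD21 from 697 to 572 CPM (-0.28) and WIZ from 34.5 to 20.6 CPM (-0.74). The part of these genes in the change of the arrays was not tested.

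For the partners of β-catenin, 10 destruction complex genes gave 4 upregulated and 2 downregulated (median 0.03), beside 30.3% and 32.1% of all tested genes. AXIN2, itself a Wnt target, fell from 27.0 to 15.1 CPM and CSNK1A1 rose from 104 to 142 CPM. Of 14 tested β-catenin/TCF targets and partners, 8 were downregulated (against 32.1%) and 2 upregulated (against 30.3%), with a median of -0.22. BCL9, a co-activator that binds β-catenin, fell from 111 to 47.0 CPM and LEF1 from 28.7 to 13.9 CPM, while MYC rose from 64.4 to 91.9 CPM.

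Of 15 Fat–Dachsous and planar polarity partners, all tested, 6 were upregulated and 7 downregulated (median 0.04), beside 30.3% and 32.1% of all tested genes. PRICKLE1 fell from 74.3 to 36.9 CPM and VANGL1, another core planar polarity gene, from 115 to 71.3 CPM. LATS2, a kinase of the Hippo pathway, rose from 51.0 to 83.5 CPM. Of 17 further genes of the cadherin superfamily 9 were tested, 1 was upregulated (against 30.3%) and 6 were downregulated (against 32.1%), with a median of -0.31. CELSR2, a seven-pass cadherin of planar polarity, fell from 87.5 to 32.7 CPM, CLSTN3 from 124 to 93.2 CPM and CDHR1 from 13.3 to 7.35 CPM.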

How the data were processed

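The authors sequenced polyadenylated RNA of U2OS cells as stranded single-read libraries, mapped reads with STAR 2.7 to hg38 with Gencode 25, and counted them with featureCounts 1.6. Each deposited table holds unnormalized whole counts of 1 library. Whether strand was used in counting and how multi-mapping reads were treated is not given in the sources used here. Here, genes were named from Gencode 44 by Ensembl identifier (15936 of the tested genes, 98.7%, matched). Counts were tested in R 4.3.3 with edgeR 4.0.16 (filterByExpr, TMM, robust glmQLFit, glmQLFTest, Benjamini-Hochberg adjustment over all 16143 tested genes, adjusted p-value under 0.01), and the code was tested on simulated data. DESeq2 1.42.0, other scaling and filters, a replicate block and leaving out each library were alternatives. Promoters came from RefSeq (GRCh38.p14); windows and counts were computed in Python 3.11.15. The family and gene lists were chosen with earlier results of these data known. Values per library are given for DDX41, the catenins, unclustered genes with a group mean of at least 5 CPM, the 6 highest clustered protocadherins and the 5 genes per direction with the smallest adjusted p, and lists show up to 3 genes with the smallest adjusted p; CDH5, PCDHA6 and PCDHGC5, also given per library, and other genes given by name were chosen after their values were seen. No source says that replicates were separate cultures, so p-values measure only the spread between these libraries, which may be technical. Intervals for single libraries were not used.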

Additional observations from a re-analysis of the deposited data

Results flagged for a closer look

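In 60 groups of 5 libraries, those of DDX41 and of 29 genes named by the rule under processing, 4 held a library that stood apart from the other 4 of its group by Dixon's criterion. Chance marks about 1 in 20 groups. Control replicate 2 was the lowest for CDH2, at 213 CPM, and for CTNND1, at 309.5 CPM. Knockdown replicate 2 was the highest for CDH6, at 4.60 CPM, and without it the log2 fold change of CDH6 was -1.32. Knockdown replicate 4 was the lowest for FAT1, at 402 CPM, still above every control library.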

How the results depend on the processing

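Downregulated genes of the family numbered 35 to 37 and upregulated genes 11 when each library was left out in turn. With an absolute log2 fold change over 1 required, 3 were upregulated and 10 downregulated. With the replicate number as a replicate block, 11 were upregulated and 36 downregulated, as without it. Same-numbered libraries did not deviate together (correlations from -0.0524 to 0.0446, with 1 of 5 libraries matching its own number best), so the numbers were not treated as pairs. DESeq2 gave 12 and 36, no filter on low counts 12 and 37, and a filter of at least 1 CPM in 5 libraries 11 and 31. Of 435 values for the 29 genes named by the rule, 432 kept direction and side of the threshold. The exceptions were PCDHB8, which passed in 2 fits, and DSG2, which is not called and whose log2 fold change lay between -0.03 (without control knockdown replicate 2) and 0.0025 (without control knockdown replicate 1). The cause was not tested. Depth limits the lowest genes: a count of 0 allows up to 3 counts, 0.121 to 0.138 CPM per library, counting error only.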

Other observations

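CDH19 and CDH7 were below the filter, and in each of them the groups did not overlap. How often this happens among all genes below the filter was not counted. CDH19 had 2 to 7 counts per control and 9 to 19 per knockdown library. CDH7 had 9 to 16 counts per control and 2 to 6 per knockdown library. In an edgeR fit without the filter their log2 fold changes were 1.54 (adjusted p = 9.51e-05) and -1.53 (adjusted p = 0.000121). Both genes were singled out after their values were seen.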
